A study of Mus musculus with 9 samples.

Results

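A group of 7 miRNAs of the choroid plexus epithelium and of the serotonin receptor gene Htr2c were followed over 9 hippocampus arrays. They are mmu-miR-204-5p and mmu-miR-204-3p, mmu-miR-211-5p and mmu-miR-211-3p, and mmu-miR-448-3p, mmu-miR-764-5p and mmu-miR-1298-5p, which make 7 of the 1247 mouse miRNAs on the array. They were found by the name the array files give each miRNA, and the list was chosen by their known source and by levels already seen on these arrays, so that differences of members between groups are given as a description, and counts of members past a threshold stand only beside the share of all tested miRNAs. Hippocampal RNA came from male C57BL/6 mice, young adults when obtained, and 3 arrays were made for each of 3 groups. The study's text gives the control and 5 mg/kg arrays as individual mice, and says nothing on this for the arrays at 1 mg/kg. The control mice received saline by oropharyngeal aspiration every other day for 4 weeks, and the other groups received PM2.5, the fine particle fraction of polluted air, in saline at 1 mg/kg bw or 5 mg/kg bw on the same schedule. The labels name no genetic change in any group.

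The choroid plexus is a folded epithelium in the brain ventricles that secretes cerebrospinal fluid, and a fringe of it lies along the hippocampus. Its cells make much miR-204 and miR-211, and they carry the serotonin receptor encoded by Htr2c, whose introns hold a row of miRNA genes. A miRNA is cut from a hairpin that gives a 5p arm and a 3p arm, and it pairs with messenger RNAs mainly through its seed, bases 2 to 8 from its 5′ end.

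The mature sequences of all 7 members were present in RefSeq (GRCm38.p6) and are shown 5′ to 3′ with the seed in capitals, since the seeds decide which members could share targets.
mmu-miR-204-5p: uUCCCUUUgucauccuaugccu
mmu-miR-211-5p: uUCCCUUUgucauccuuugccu
mmu-miR-204-3p: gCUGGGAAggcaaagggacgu
mmu-miR-211-3p: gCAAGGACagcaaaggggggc
mmu-miR-448-3p: uUGCAUAUguaggaugucccau
mmu-miR-764-5p: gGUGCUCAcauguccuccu
mmu-miR-1298-5p: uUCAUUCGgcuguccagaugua
The 5p arms of miR-204 and miR-211 have the same seed and differ at 1 of 22 bases (A17U, counted from the 5′ end, with the base of miR-204-5p first). The other 5 members each have a seed that no other member has.

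Mature miR-204-5p lies on the plus strand at chr19:22750610-22750631, within the span of Trpm3, and miR-211-5p lies at chr7:64205831-64205852, within the span of Trpm1. Both host genes encode cation channels of the melastatin family. The other 3 members lie on chromosome X within the span of Htr2c, from 146962464 to 147197277. From low to high coordinates miR-764-5p comes first (chrX:147002285-147002303), then miR-1298-5p (chrX:147064918-147064939) and then miR-448-3p (chrX:147158281-147158302). The gene table used holds no exons, so the place of these miRNAs in exons or introns was not read from it.

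On the array, RNA carrying a fluorescent dye binds to short DNA probes, and Feature Extraction software called each miRNA detected or not detected. Between 410 and 436 miRNAs were detected per array, the 75th percentile of the signal of those detected on all 9 arrays ran from 492 to 614 units. No spot was saturated (0 of 49880 per array). Levels below are log2 of the signal divided by that percentile, and a level that was not well above background is a bound. The number of arrays limits the precision. Markers of neurons were present as the tissue label requires, with mean levels from -0.17 for miR-212-3p to 6.05 for miR-128-3p. The arrays lay in 2 rows of 1 slide, except 5 mg/kg replicate 3, which lay alone on a second slide. Row 1 held all 3 control arrays, 1 mg/kg replicate 1 and, on the second slide, 5 mg/kg replicate 3. Row 2 held the other 4 arrays, so that row and dose overlap in part.

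A pair of arrays stood apart and must be known before the results. Control replicate 1 and 5 mg/kg replicate 3 both lay at row 1 and column 1 of their slides, and 59 of the 424 tested miRNAs were lower on both of them than on any of the other 7 arrays, while 72 were higher on both. Among the members 6 of 7 were lowest on this pair, all but miR-211-3p. Of these, miR-204-3p, miR-448-3p and miR-764-5p were detected on neither array of the pair. They also passed the filter described below through the 1 mg/kg group alone, so nothing is read from this count. The mean difference of the pair from the other 7 arrays was -2.67 for miR-1298-5p, which was detected on both. On 5 mg/kg replicate 3, however, its level of -5.95 lay near the lowest detected value of that array (log2 -6.26). The mean difference was -2.31 for miR-448-3p and -1.96 for miR-764-5p, which were detected on neither array of the pair, so these values rest on bounds. Values without these arrays are given below beside many, though not all, of the group differences, spreads and correlations, a choice made after the levels were seen. Without the pair, the control arrays left were all in row 1 and the 5 mg/kg arrays left all in row 2. The differences between 5 mg/kg and the control without the pair thus cannot be told apart from row.

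All 7 members passed the filter, which asked for detection on all 3 arrays of at least 1 group. Only miR-204-5p, miR-211-5p, miR-211-3p and miR-1298-5p were detected on all 9 arrays. The filter was passed by miR-204-3p, miR-448-3p and miR-764-5p through the 1 mg/kg group alone, where each was detected on 3 of 3 arrays. In the control group miR-204-3p was detected on 1 of 3 arrays and the other pair on 2 of 3, and at 5 mg/kg each was detected on 2 of 3.

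The miR-204 hairpin gives a major and a minor arm, and both were measured. On the control arrays miR-204-5p, which represses many epithelial and eye genes, had log2 levels of 1.57, 2.23 and 2.07. At 1 mg/kg the levels were 2.37, 2.73 and 3.08. At 5 mg/kg they were 1.78, 2.43 and 1.47. All arrays at 1 mg/kg lay above all control arrays, while the arrays at 5 mg/kg lay on both sides of them. The level at 1 mg/kg was 2.73 ± 0.36 (SD, n = 3) against 1.96 ± 0.34 (SD, n = 3) in the control group, a difference of 0.77 (standard error 0.28), or 1.70-fold. At 5 mg/kg the level was 1.90 ± 0.49 (SD, n = 3), a difference from the control of -0.06 (standard error 0.28). Without the pair of arrays at row 1 and column 1, the differences were 0.58 (standard error 0.24) and -0.04 (standard error 0.27). Both probes of miR-204-5p gave the same picture, with differences at 1 mg/kg of 0.81 for the probe of 19 bases and 0.76 for that of 20 bases.

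The opposite arm, miR-204-3p, comes from the same hairpin and is usually the minor product. Its levels were -5.90, -5.10 and -5.42 on the control arrays, -4.86, -4.36 and -3.95 at 1 mg/kg, and -5.32, -4.62 and -5.91 at 5 mg/kg. It was not detected on control replicates 1 and 3 and on 5 mg/kg replicate 3, so those levels are bounds. The arrays had nearly the order they had for the 5p arm, and over the 6 arrays that detected it the order was the same (Spearman rho = 1.00, Pearson r = 0.98). The difference from the control was 1.08 (standard error 0.36) at 1 mg/kg and 0.19 (standard error 0.36) at 5 mg/kg. Without the pair of arrays it was 0.87 (standard error 0.29) and 0.29 (standard error 0.32).

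Levels of miR-211-5p, known from pigment cells as well as from the choroid plexus, were -3.83, -3.32 and -3.47 in the control group. They were -3.33, -3.11 and -2.88 at 1 mg/kg, and -3.66, -3.32 and -4.11 at 5 mg/kg. The arrays kept the order of miR-204-5p closely, with the groups overlapping by a narrow margin at 1 mg/kg. The difference was 0.43 (standard error 0.22) at 1 mg/kg and -0.16 (standard error 0.22) at 5 mg/kg. Without the pair of arrays it was 0.28 (standard error 0.15) and -0.10 (standard error 0.17). The probes of this pair of 5p arms have nearly the same sequence, as those of 20 bases show.
Probe of mmu-miR-204-5p: aggcataggatgacaaaggg
Probe of mmu-miR-211-5p: aggcaaaggatgacaaaggg
Each of the 4 probes of miR-211-5p has 1 mismatch to mature miR-204-5p. Their highest signals were 3.63, 11.4, 29.2 and 40 units for 19, 20, 21 and 22 bases, and the Pearson r of their levels with miR-204-5p was 0.03, 0.90, 0.98 and 0.98. How far miR-204-5p itself binds to these probes was not tested.

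The 3p arm of miR-211 did not share this pattern. Levels of miR-211-3p were -2.89, -3.0 and -3.31 in the control group, -2.93, -3.16 and -3.26 at 1 mg/kg, and -3.02, -3.03 and -3.06 at 5 mg/kg. They spanned 0.42 over the 9 arrays, where the median range of the tested miRNAs was 0.45, with control replicate 1 highest and 5 mg/kg replicate 3 in the middle. The differences from the control were -0.05 (standard error 0.12) at 1 mg/kg and 0.03 (standard error 0.12) at 5 mg/kg, and without the pair of arrays 0.04 (standard error 0.13) and 0.13 (standard error 0.14). Its Pearson r with miR-211-5p over 9 arrays was -0.43 and with miR-204-5p -0.47. Its probes have 12 and 13 bases, the longer with 69.2% G and C, and what they bind besides miR-211-3p was not tested.

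Among the miRNAs of Htr2c, miR-1298-5p varied most. Its levels were -4.88, -2.86 and -3.32 on the control arrays, -2.73, -2.31 and -1.68 at 1 mg/kg, and -3.58, -2.74 and -5.95 at 5 mg/kg. The highest and the lowest array differed 19.2-fold, and 3.73-fold without the pair of arrays. The lowest level, on 5 mg/kg replicate 3, was near the lowest detected value of that array. All arrays at 1 mg/kg lay above all control arrays, but control replicate 1 and 5 mg/kg replicate 3 fell far below the rest. The difference at 1 mg/kg was 1.45 (standard error 0.82), or 2.73-fold, and without that pair it was 0.85 (standard error 0.35). At 5 mg/kg it was -0.40 (standard error 0.82), and without the pair -0.07 (standard error 0.38).

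Levels of miR-448-3p were -5.47, -3.61 and -4.03 in the control group, -3.31, -3.3 and -2.71 at 1 mg/kg, and -4.21, -3.71 and -6.26 at 5 mg/kg. It was not detected on control replicate 1 and 5 mg/kg replicate 3, whose levels are bounds. The order was again highest at 1 mg/kg, without overlap with the control arrays. The difference of 1.26 (standard error 0.68) at 1 mg/kg became 0.72 (standard error 0.24) without the pair, and that of -0.36 (standard error 0.68) at 5 mg/kg became -0.14 (standard error 0.26).

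The third miRNA of the gene, miR-764-5p, had a different course. Its levels were -5.85, -4.26 and -4.20 on the control arrays, -4.09, -4.21 and -4.13 at 1 mg/kg, and -3.82, -3.95 and -6.26 at 5 mg/kg. It too was not detected on control replicate 1 and 5 mg/kg replicate 3, but on the other 7 arrays it spanned only 0.44, where miR-1298-5p spanned 1.90 and miR-448-3p 1.51. Its highest levels were those of 5 mg/kg replicates 1 and 2. The difference was 0.63 (standard error 0.67) at 1 mg/kg and 0.09 (standard error 0.67) at 5 mg/kg, and without the pair 0.09 (standard error 0.08) and 0.34 (standard error 0.09). The value of 0.34 sets 5 mg/kg arrays of row 2 against control arrays of row 1, so dose and row cannot be told apart in it.

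**Figure D1:**
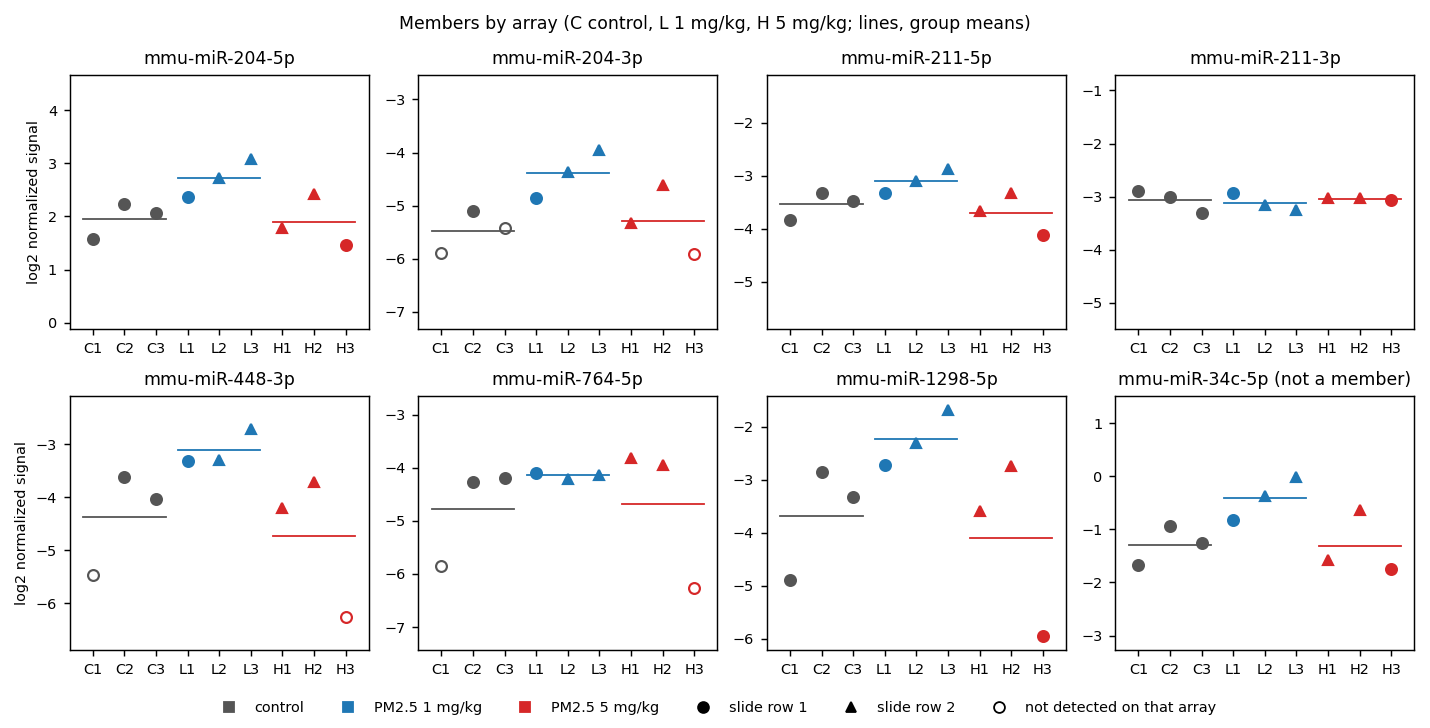
Log2 normalized signal (vertical axes, each spanning the same number of log2 units) of the 7 members and of miR-34c-5p on each array, with lines for the group means, the marker shape for the slide row and open markers where a miRNA was not detected. Of the members, 6 fell lowest on C1 (control replicate 1) and H3 (5 mg/kg replicate 3), where miR-204-3p, miR-448-3p and miR-764-5p were not detected. On the other 7 arrays miR-764-5p spanned 0.44, and miR-211-3p spanned 0.42 over all 9.

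Of the other arms listed for the Htr2c miRNAs, 7 of 9 were on the array and 4 of these, miR-448-5p, miR-1264-3p, miR-1912-5p and miR-1912-3p, were detected on 0 arrays. The opposite arm miR-1298-3p was detected on the same 7 arrays as miR-448-3p and miR-764-5p. Over those 7 arrays its Pearson r with miR-1298-5p was 0.32, and its levels spanned 0.80. Its level was -4.99 at 1 mg/kg and -5.76 in the control group, a difference of 0.77 (standard error 0.34). The probe of 17 bases had a highest signal of 19.8 units and that of 16 bases 1.96 units, so its level rested mainly on 1 probe, and on control replicate 1 and 5 mg/kg replicate 3 the level is a bound. The arm miR-764-3p was detected on 4 arrays, all of row 2, and miR-1264-5p on 2 arrays, 1 mg/kg replicates 2 and 3.

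The group comparisons made here ask whether miRNA levels with PM2.5 differed from those with saline, and whether the doses differed. The study's text describes its array screen for 5 mg/kg against the control. At 1 mg/kg, 4 of the 7 members (miR-204-5p, miR-204-3p, miR-448-3p and miR-1298-5p) had all 3 arrays above all 3 control arrays, where 4.72% of the 424 tested miRNAs did. In the limma fit over all tested miRNAs, 2 members (both arms of miR-204) were at an unadjusted p under 0.05, where 7.78% of all were, and 0 members, and 1 miRNA of all, were past 0.05 after Benjamini-Hochberg adjustment. The members were chosen with this contrast known, and miR-204-3p and miR-448-3p passed the filter through the 1 mg/kg group alone, so nothing is read from these counts. The median difference was 0.77 over the members and -0.03 over all tested miRNAs. It has the same limits, and miR-764-5p also passed the filter through the 1 mg/kg group alone, so nothing is read from it either. At 5 mg/kg, 0 members lay above all control arrays, where 6.60% of the tested miRNAs did, and 0 were at an unadjusted p under 0.05, where 9.43% were. The median there was -0.06 over the members and 0.00 over all tested.

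The doses were also set against each other, as a description. The difference, 5 minus 1 mg/kg, was -0.83 (standard error 0.28) for miR-204-5p, -0.59 (standard error 0.22) for miR-211-5p and -1.85 (standard error 0.82) for miR-1298-5p. Without the pair of arrays these were -0.62 (standard error 0.24), -0.38 (standard error 0.15) and -0.92 (standard error 0.35). For miR-764-5p it was -0.53 (standard error 0.67), which rests on a bound on 5 mg/kg replicate 3, and it turned to 0.26 (standard error 0.08) without the pair. For miR-211-3p it was 0.08 (standard error 0.12). All 3 arrays at 5 mg/kg lay below all 3 at 1 mg/kg for 2 members (miR-448-3p and miR-1298-5p), where 1.42% of the tested miRNAs did. At an unadjusted p under 0.05 were 4 members (both arms of miR-204, miR-211-5p and miR-448-3p), where 3.77% of all were. As miR-204-3p and miR-448-3p passed the filter through the 1 mg/kg group alone, lower values elsewhere were favoured by it, and nothing is read from these counts either. The comparisons share arrays, so their values are set side by side only.

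**Figure D2:**
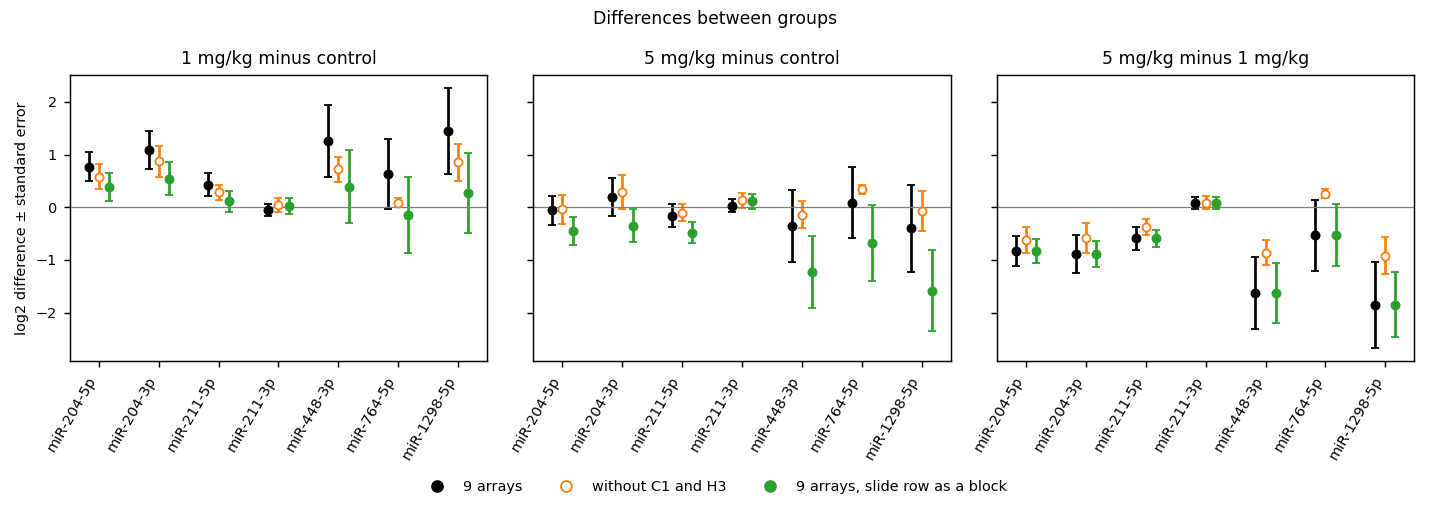
Log2 difference between groups with its standard error (vertical axis) for each member over 9 arrays, without control replicate 1 (C1) and 5 mg/kg replicate 3 (H3), and over 9 arrays with the slide row as a block. At 1 mg/kg the difference for miR-204-5p was 0.77, 0.58 and 0.38 in these fits, and at 5 mg/kg it was -0.06, -0.04 and -0.45.

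Levels also differed between the rows of the slide, which cannot be told apart from dose in full. The level of miR-204-5p was 2.51 in row 2 and 1.94 in row 1, a difference of 0.56, which was 0.28 without the pair of arrays. With the row as a block, the difference of miR-204-5p from the control was 0.38 (standard error 0.27) at 1 mg/kg and -0.45 (standard error 0.27) at 5 mg/kg. The same block gave 0.11 and -0.48 for miR-211-5p, 0.27 and -1.58 for miR-1298-5p, and 0.54 and -0.35 for miR-204-3p. Row 2 holds no control array, so these values rest on how the doses lie within each row. The only 5 mg/kg array in row 1 is replicate 3, on the second slide. Its level was near the lowest detected value for miR-1298-5p and is a bound for miR-204-3p. With the slide as a block instead, the differences at 1 and 5 mg/kg were 0.77 (standard error 0.25) and 0.15 (standard error 0.28) for miR-204-5p. For miR-211-5p they were 0.43 (standard error 0.17) and 0.05 (standard error 0.19).

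Within row 1, the single array at 1 mg/kg lay above the mean of the 3 control arrays by 0.41 for miR-204-5p, 0.61 for miR-204-3p, 0.21 for miR-211-5p, 1.06 for miR-448-3p and 0.96 for miR-1298-5p. Against control replicates 2 and 3 alone, these were 0.22, 0.40, 0.06, 0.51 and 0.36. For the other members the values were 0.68 and then 0.14 for miR-764-5p, and 0.14 and then 0.23 for miR-211-3p. The first values of miR-448-3p and miR-764-5p rest on a bound on control replicate 1. Both values of miR-204-3p rest on bounds, as control replicates 1 and 3 did not detect it. The single array at 5 mg/kg in row 1 differed from control replicate 1, which has the same position on the other slide, by -0.10 for miR-204-5p. The difference was -1.07 for miR-1298-5p, whose level on the 5 mg/kg array was near the lowest detected value of that array. For miR-448-3p, detected on neither of these arrays, no difference can be given. Within row 2, with 2 arrays per dose, the mean at 5 mg/kg minus that at 1 mg/kg was -0.80 for miR-204-5p, -0.81 for miR-204-3p and -0.49 for miR-211-5p. It was -0.96 for miR-448-3p and -1.16 for miR-1298-5p. As miR-204-3p and miR-448-3p passed the filter through the 1 mg/kg group alone, lower values at 5 mg/kg were favoured for them. For miR-764-5p the difference in row 2 was 0.28 and for miR-211-3p 0.18. With 1 or 2 arrays per dose in a row, no test was made.

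Across arrays, the levels of miR-204-5p, miR-211-5p and miR-1298-5p moved together. Each probe of miR-211-5p has 1 mismatch to miR-204-5p. For the probes of 20 bases the median signal was 1870 units for miR-204-5p and 8.78 units for miR-211-5p. How far miR-204-5p binds to the probes of miR-211-5p was not tested, so the r of miR-211-5p below have that limit. Over the 9 arrays the Pearson r was 0.97 between miR-204-5p and miR-211-5p (Spearman rho = 0.95), 0.93 between miR-204-5p and miR-1298-5p (rho = 0.98), and 0.98 between miR-211-5p and miR-1298-5p (rho = 0.93). With the group means removed these r were 0.97, 0.90 and 0.97, and with the row means removed 0.97, 0.90 and 0.97. These 3 miRNAs thus also moved together inside groups and rows, where the pair of arrays was still included. Without that pair each r was 0.99. These are descriptions over arrays that share slides and a scaling, for miRNAs chosen for their pattern. They depended on the signal used: from the total signal of the files the 3 values were 0.58, -0.22 and 0.19, and with normexp background correction the first was 0.61 and the last 0.75. The slope of miR-1298-5p on miR-204-5p was 2.32 over the 9 arrays, and 1.46 (r = 0.99) without the pair of arrays. Over the 7 arrays that detected both, miR-448-3p had a slope of 1.12 on miR-204-5p (r = 0.95), and miR-764-5p one of -0.15 (r = -0.40).

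The spread inside groups was wide for several members and rested in part on the pair of arrays. The SD within groups was 1.18 for miR-1298-5p, the largest of the 424 tested miRNAs, and 0.50 (rank 4) without the pair. For miR-448-3p it was 0.98 (rank 5) and then 0.34 (rank 20), and for miR-764-5p 0.96 (rank 6) and then 0.07 (rank 362), so that its spread lay in those arrays. Neither was detected on the pair, so their SD and ranks with the pair rest on bounds. The miR-204 arms changed less, from 0.51 to 0.42 for miR-204-3p (rank 12 in both) and from 0.40 (rank 26) to 0.34 (rank 18) for miR-204-5p. Both SD of miR-204-3p rest on bounds, as it was not detected on the pair or on control replicate 3. For miR-211-5p the values were 0.30 (rank 47) and 0.20 (rank 69), and for miR-211-3p 0.16 (rank 184) and 0.16 (rank 111). The median over the tested miRNAs was 0.14, and 0.11 without the pair. Ranks 2 to 4 over 9 arrays were those of miR-200b-3p, miR-429-3p and miR-200a-3p, which are no members.

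Among the 391 other miRNAs detected on all 9 arrays, those most like miR-204-5p were miR-34c-5p (r = 0.99, rho = 1.00, slope 1.13) and miR-34b-5p (r = 0.99, rho = 0.98, slope 1.00). Both are made from a gene pair that is active in multiciliated cells, such as those that line the ventricles and cover the choroid plexus. Then came miR-199a-3p (r = 0.79, slope 0.33), miR-199b-5p (r = 0.76, slope 0.33) and miR-152-3p (r = 0.72, slope 0.22). The lowest r were those of miR-690 (-0.86), miR-483-5p (-0.81) and miR-30e-5p (-0.79), with slopes from -0.24 to -0.10.

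Levels of miR-34c-5p were -1.67, -0.94 and -1.25 on the control arrays, -0.83, -0.38 and -0.01 at 1 mg/kg, and -1.57, -0.63 and -1.75 at 5 mg/kg. The order of the 9 arrays was that of miR-204-5p. Its difference from the control at 1 mg/kg was 0.88 (standard error 0.33). Without the pair of arrays at row 1 and column 1, the slope on miR-204-5p was 1.22 for miR-34c-5p and 1.1 for miR-34b-5p, close to the slopes over 9 arrays, where that of miR-1298-5p went from 2.32 to 1.46.

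**Figure D3:**
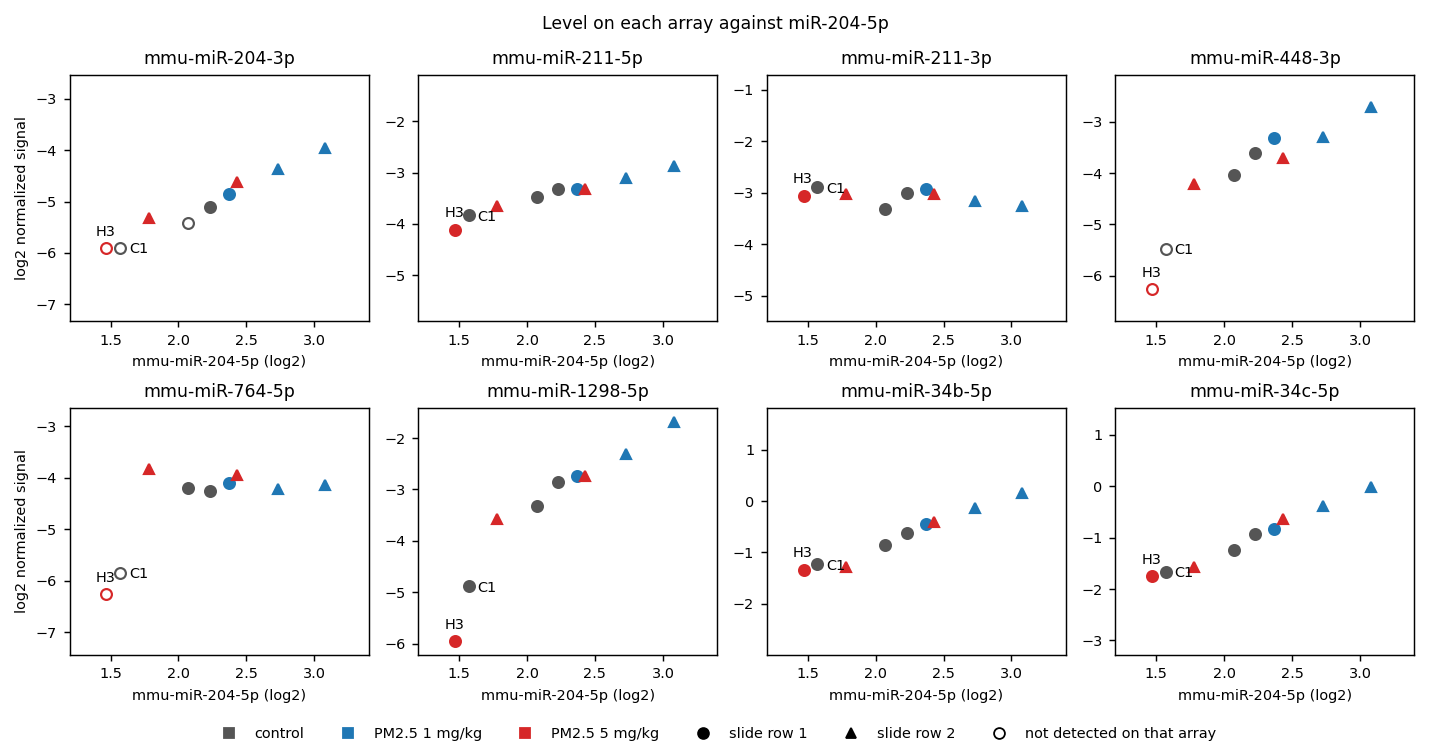
Log2 normalized signal of 6 members and of miR-34b-5p and miR-34c-5p (vertical axes, each spanning the same number of log2 units) against that of miR-204-5p on the same array (horizontal axes). The levels of miR-204-3p, miR-211-5p, miR-34b-5p and miR-34c-5p followed miR-204-5p on all arrays, and miR-448-3p, miR-764-5p and miR-1298-5p dropped on C1 and H3.

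Levels of marker miRNAs of other cell types were set beside miR-204-5p, as a description, since the member and the lists were chosen with values of these arrays known. The mean level of the 2 multiciliated cell markers detected on all 9 arrays, miR-34b-5p and miR-34c-5p, had a Pearson r of 0.99 with miR-204-5p (Spearman rho = 1.00). They are also the miRNAs most like it, so this is the same pattern as above. Without the 2 arrays farthest from the median of miR-204-5p (1 mg/kg replicate 3 and 5 mg/kg replicate 3) r was 0.99, and it was 0.99 with the row means removed and without the pair of arrays at row 1 and column 1. Of the 9 miRNAs of the list, 5, all of the miR-449 family, were detected on 0 arrays. The mean level ran from -1.45 to -0.78 in the control group, from -0.64 to 0.08 at 1 mg/kg, and from -1.54 to -0.51 at 5 mg/kg. In whole tissue, more cells of a type and more RNA per cell cannot be told apart.

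The other lists had lower correlations with miR-204-5p, and some of them moved with the arrays used. For vessel wall and meninges (5 miRNAs, of which miR-126-3p was the brightest and miR-199a-3p the dimmest) r was 0.64 (rho = 0.68). It was 0.56 without the 2 farthest arrays, 0.63 with the row means removed and 0.45 without the pair at row 1 and column 1. For neurons (6 miRNAs) r was -0.65 (rho = -0.77), and in the same order -0.75, -0.70 and -0.66. For oligodendrocytes (3 miRNAs, miR-338-3p the brightest) r was 0.12 (rho = -0.13), then 0.26 and 0.39, and it was 0.74 (rho = 0.64) without the pair. For blood cells (3 miRNAs, miR-451a the brightest) r was -0.19 (rho = -0.18), then 0.07, -0.41 and -0.55. The values of the last pair of lists thus differed in size or sign with the arrays left out.

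The mean levels of these lists spanned at most 1.03 over the 9 arrays (oligodendrocytes) and 0.29 for neurons and for the vessel wall, against 1.61 for miR-204-5p. A mean over a list can span less than its miRNAs do. Single neuron markers spanned from 0.35 to 0.92, and single vessel wall markers from 0.16 to 0.72. Among the neuron markers, the mean difference of the pair of arrays from the other 7 ran from -0.54 to 0.47. The list of epithelial markers had no miRNA detected on all 9 arrays. Its miR-200a-3p, miR-200b-3p and miR-429-3p were detected on 8 arrays, and their differences at 1 mg/kg were -0.64 (standard error 0.69), -0.62 (standard error 0.77) and -0.54 (standard error 0.71). On the pair of arrays at row 1 and column 1 they were higher than on the other 7 by 1.21, 1.42 and 1.27 in the mean, where the members other than miR-211-3p were lower. The mean of the other 7 includes 5 mg/kg replicate 1, where none of them was detected. On 1 mg/kg replicate 3, where miR-204-5p was highest, their levels of -3.58, -3.27 and -3.28 were near those of control replicate 1 (-3.56, -3.24 and -3.19). The amount of choroid plexus or ventricle lining in the dissected tissue was not measured, and its part in the levels of the members was not tested.

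**Figure D4:**
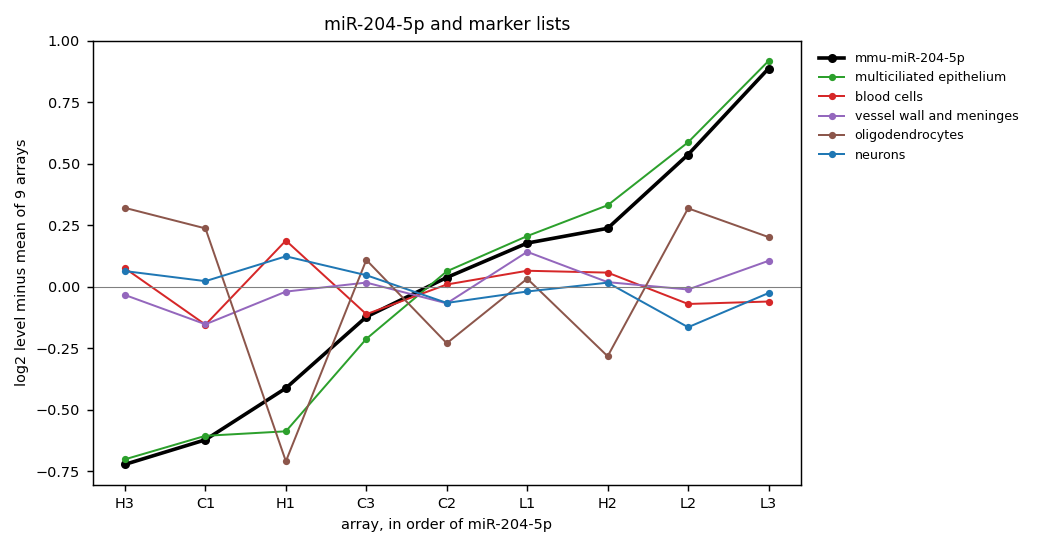
Level of miR-204-5p and mean level of 5 marker lists on each array, as log2 minus the mean over 9 arrays (vertical axis), with the arrays in the order of miR-204-5p (horizontal axis; C control, L 1 mg/kg, H 5 mg/kg). The multiciliated list ran beside miR-204-5p on all 9 arrays (r = 0.99). The mean levels of the blood cell, vessel wall and neuron lists stayed within 0.34 from lowest to highest. Of the miRNAs averaged for them, which were detected on all 9 arrays, single ones spanned up to 0.92.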

How the data were processed

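Hippocampal miRNA was measured on Agilent Mouse miRNA V19.0 arrays. The authors scanned them with Feature Extraction 10.7, per the labels, and deposited intensity values for each spot (background-subtracted signal, mean signal, local background) and each miRNA (total signal, detection call), not normalized between arrays. They also deposited a log2 table, used here as an alternative, whose normalization was not given in the sources used here. Its column medians ran from -3.32 to -3.29.

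After removal of outlier spots (3.76% to 4.59% per array), spots were averaged by probe and probes summed by miRNA. Sums were scaled to the 75th percentile of the 395 miRNAs detected throughout, raised where needed to the array's lowest detected value (log2 -6.68 to -5.93), and put on the log2 scale. A miRNA was tested if every array of some group detected it, which held for 424. A linear model of the 3 groups over the 9 arrays was fitted with limma 3.58.1 (R 4.3.3), with empirical Bayes variances, and p-values were adjusted by Benjamini-Hochberg. The study's statistics section names a one-way comparison, which also pools the spread. The fit was tested on simulated data. Permutation tests of correlations with marker lists are not reported, since miR-204-5p and the lists were chosen with these values known. Sequences and gene spans came from RefSeq (GRCm38.p6).

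The members and the lists were chosen with earlier results of these data known. Named miRNAs are the members, the listed Htr2c miRNAs, the 5 highest and 3 lowest correlations with miR-204-5p, and the brightest and dimmest of each marker list. The miR-200 family was named after its values were seen. Alternatives covered the signal used, background correction, scaling, floor, filter, blocks and each array left out in turn. Fits without both arrays at row 1 and column 1 were added after seeing the data.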

Additional observations from a re-analysis of the deposited data

How the results depend on the processing

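Over 21 alternatives the difference of miR-204-5p at 1 mg/kg ran from 0.38 (row of the slide as a block) to 0.95 and was above 0 in all of them, and at 5 mg/kg it ran from -0.45 (the same block) to 0.15. Leaving out 1 array at a time gave 0.58 to 0.95 and -0.33 to 0.15. With the replicate block these differences were 0.77 and -0.06, equal to those without it, and row 2 minus row 1 was 0.49. Arrays that share a number had correlations of their deviations between -0.65 and 0.74, and 4 of 9 arrays correlated best with their own number. The Pearson r of miR-204-5p and miR-1298-5p was -0.22 from the files' total signal and 0.99 without control replicate 1 and 5 mg/kg replicate 3. It was 0.91 to 0.95 when 1 array was left out. The r of miR-204-5p with the blood cell list was 0.07 without the 2 farthest arrays and 0.17 without scaling, and with the neuron list it was -0.09 without scaling.

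Dim members depended more on the processing. With normexp (offset 50) the difference at 1 mg/kg was 0.09 for miR-204-3p, 0.02 for miR-211-5p and 0.12 for miR-448-3p. From the total signal it was -0.02 for miR-1298-5p and 2.39 for miR-764-5p. The deposited table gave 3.43 for miR-204-3p and 1.76 for miR-764-5p. In the 1 mg/kg comparison, the count of miRNAs at an unadjusted p under 0.05 was 780 without a filter, where undetected miRNAs lie at the floor of each array (such as miR-448-5p at -6.06 in the control group and -6.45 at 1 mg/kg), and 17 without the pair of arrays, against 33. Other causes were not tested.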

Other observations

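The total signal that Feature Extraction computed departed from the spots for the dim Htr2c miRNAs. For miR-1298-5p it was 189 units on control replicate 1 and 187 on 5 mg/kg replicate 3, where the summed probe signals were lowest, at 18.4 and 9.92 units. On the other 7 arrays it ran from 16.8 to 69.2 units, with summed probe signals from 46.1 to 190 units. For miR-764-5p the total signal was between 557 and 776 units on the 7 arrays that detected it, where the summed probe signals were between 26.8 and 39.1 units, and 0.949 and 1.05 units on the other two. For miR-204-5p the total signal ran from 588 to 1880 units and kept the order of the summed probe signals except between control replicate 2 and 1 mg/kg replicate 1.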
